A study of Mus musculus with 3 samples.

Results

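The genes that build, load and switch on major histocompatibility complex (MHC) class I molecules were followed in chromatin RNA of mouse macrophages. The members were taken by gene symbol, H2-K1, H2-D1, H2-T23, B2m, Tap1, Tap2, Tapbp, Psmb8, Psmb9 and Nlrc5, and all 10 were found once among the 55536 genes of the tables. The cells were bone marrow-derived macrophages of C57BL/6J mice, stimulated with Lipid A, the membrane anchor of bacterial lipopolysaccharide and a ligand of Toll-like receptor 4, at 100 ng/ml for 25 min. RNA of the chromatin fraction, which is enriched for transcripts still being made, was depleted of ribosomal RNA and sequenced in 3 libraries labelled biological replicates 1, 2 and 3. All 3 libraries had the same treatment and belonged to 1 group, so no unstimulated cells or other times were compared here and nothing below measures a response to Lipid A. The labels give the libraries 1 shared donor identifier, so the spread between them may be technical, and p-values measure only that spread. The recorded difference between libraries was how much RNA went in: 1000 ng for replicate 1, 250 ng for replicate 2 and 500 ng for replicate 3. Age and sex were not collected, per the labels.

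MHC class I molecules display short peptides from inside the cell to cytotoxic T cells. A heavy chain pairs with beta-2-microglobulin, the proteasome cuts proteins into peptides, the TAP transporter carries peptides into the endoplasmic reticulum, and tapasin holds empty class I molecules beside TAP until a peptide fits. In macrophages interferon raises many of these genes, and NLRC5, which binds promoters through the RFX, CREB/ATF and NF-Y factors, is the transactivator of the class I set.

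Of the members, 8 lay on chromosome 17 (GENCODE M21, mm10) within 2.12 Mb, and Psmb9, Tap1, Psmb8 and Tap2 filled 34.3 kb of it. B2m was on chromosome 2 and Nlrc5 on chromosome 8. RefSeq promoters (build GRCm38.p6) were matched for 8 members by symbol, all but Tap2 and Nlrc5. The 250 bases before the RefSeq start were searched on both strands for 4 sets of letters. GGGNNTTNCC stood for NF-kB and GAANNGAAA for 1 spelling of the interferon-stimulated response element core. TGACG stood for the core of the CREB/ATF element, and CCAAT for the NF-Y box. The 4 stretches below have the matches in capitals and are shown because H2-K1 and H2-D1 have the same arrangement of matches, B2m has part of it, and Tap1 and Psmb9 share the last stretch. They are H2-K1 at chr17:34000348-34000597 on the minus strand, H2-D1 at chr17:35262844-35263093 on the plus strand, B2m at chr2:122147437-122147686 on the plus strand, and the Tap1 to Psmb9 interval at chr17:34187331-34187555 in the direction of Tap1.
H2-K1: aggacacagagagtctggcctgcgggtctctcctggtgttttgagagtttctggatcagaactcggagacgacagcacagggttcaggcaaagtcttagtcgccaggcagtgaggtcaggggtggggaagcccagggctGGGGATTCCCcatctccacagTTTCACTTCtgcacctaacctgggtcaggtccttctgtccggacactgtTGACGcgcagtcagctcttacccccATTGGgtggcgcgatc
H2-D1: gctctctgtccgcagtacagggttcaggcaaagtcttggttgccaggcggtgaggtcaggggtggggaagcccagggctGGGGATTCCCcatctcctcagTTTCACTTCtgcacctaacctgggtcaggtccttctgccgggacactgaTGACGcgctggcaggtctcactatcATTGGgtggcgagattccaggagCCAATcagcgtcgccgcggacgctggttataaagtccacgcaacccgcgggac
B2m: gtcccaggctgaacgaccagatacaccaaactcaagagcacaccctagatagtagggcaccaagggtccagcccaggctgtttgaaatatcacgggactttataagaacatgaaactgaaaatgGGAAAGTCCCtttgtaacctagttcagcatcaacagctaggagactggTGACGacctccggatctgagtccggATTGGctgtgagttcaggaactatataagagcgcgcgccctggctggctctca
Tap1-Psmb9: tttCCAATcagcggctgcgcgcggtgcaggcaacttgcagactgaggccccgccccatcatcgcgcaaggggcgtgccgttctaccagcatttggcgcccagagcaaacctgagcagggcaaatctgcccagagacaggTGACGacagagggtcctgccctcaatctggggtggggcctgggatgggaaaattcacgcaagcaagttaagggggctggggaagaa
The H2-K1 and H2-D1 windows held the same letters in the same order: GGGGATTCCC, then TTTCACTTC (the response element core read on the other strand), then TGACG, then ATTGG (the NF-Y box on the other strand). In H2-K1 they began 111, 90, 41 and 16 bases before the start, and in H2-D1 171, 150, 101 and 76 bases before it. A second NF-Y box followed in H2-D1 at 53. RefSeq lists another H2-K1 start, 14 bases further in, whose window held the same 4 matches and also a second NF-Y box, 6 bases before that start. B2m held an NF-kB match, GGAAAGTCCC, at 126 bases, TGACG at 78 and ATTGG at 53, and no response element core as spelled here. Just before the NF-kB match its window reads gaaactgaaa, which has the longer spelling, so B2m is not shown to lack the element. The 225 bases between the starts of Tap1 and Psmb9 held 1 CCAAT and 1 TGACG, which serve as windows of both genes. H2-T23 held 1 CCAAT, Tapbp held 2 and Psmb8 held none of the 4. The H2-T23 window also reads tttctctttc, the longer response element spelling on the other strand. Of 32851 RefSeq promoter windows of this length, 4.11% held the NF-kB letters, 6.31% GAANNGAAA, 17.8% TGACG and 33.8% CCAAT. No overlap between matches of different motifs occurred in the printed windows, and a match describes letters, not bound factors.

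The levels of the 10 genes spanned 212-fold, from the classical heavy chains at the top to the immunoproteasome subunits at the bottom. Levels are TPM, a length-corrected share of the RNA, over genes of at least 300 nt. The median member stood at 55.9 TPM (61.6, 47.1 and 53.6 in replicates 1, 2 and 3). The median of the 21898 protein-coding genes was 1.09 TPM, and that of the protein-coding genes at 1 TPM or more was 16.4. All 10 members reached 1 TPM. H2-K1 and H2-D1 together held 85.4%, 85.3% and 85.5% of the members' summed TPM.

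H2-D1 (ENSMUSG00000073411.11, chr17:35262730-35267499, plus strand) encodes the classical heavy chain H2-D. It measured 1789, 1265 and 1460 TPM in replicates 1, 2 and 3, or 1505 ± 265 (SD, n = 3), from 7414, 7910 and 9611 expected counts. H2-K1 (ENSMUSG00000061232.16, chr17:33996017-34000347, minus strand), the other classical heavy chain of this strain, measured 1680, 1008 and 1473 TPM, or 1387 ± 344 (SD, n = 3). Replicate 2 was lowest for both genes, their ranges overlapped, and H2-D1 was the higher gene in 2 of the 3 libraries. Each stood at the 99.9 percentile of protein-coding genes. H2-T23 (ENSMUSG00000067212.8, chr17:36029773-36032855, minus strand) encodes the non-classical heavy chain Qa-1, which presents signal peptides of other class I chains to NK cell receptors. It measured 50.1, 36.5 and 44.8 TPM, or 43.8 ± 6.85 (SD, n = 3), below both classical chains in every library.

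B2m (ENSMUSG00000060802.8, chr2:122147686-122153083, plus strand) encodes the light chain that every classical class I molecule needs. It measured 122, 60.5 and 62.5 TPM, or 81.7 ± 35.0 (SD, n = 3), with replicate 1 above the others and a mean of 61.5 without it. Against H2-K1, B2m was lower by log2 ratios of -3.78, -4.06 and -4.56, a mean of -4.13 ± 0.39 (SD, n = 3) or 17.6-fold. Against H2-D1 the mean log2 ratio was -4.27 ± 0.35 (SD, n = 3). By gene-level TPM the light chain was thus the scarcer RNA in all 3 libraries. For H2-K1 79.1% of the counts lay on retained-intron transcripts, and none is annotated for B2m. On protein-coding transcripts alone, without length correction, B2m had 463, 342 and 338 counts. There H2-K1 had 976, 1514 and 2031, and H2-D1 had 5278, 5897 and 7298. The part of the annotated transcripts in the TPM gap was not tested. The size of the TPM gap also depended on the estimate. In the second deposited table, made with kallisto-type columns, B2m was 7.08-fold below H2-K1 and 7.54-fold below H2-D1. B2m drew 3.10 times as many counts there as in the RSEM-type table (2.81, 3.16 and 3.44 by replicate), against 1.24 for H2-K1, 1.26 for H2-D1 and a median of 1.59 over 10720 genes, with 90% of genes between 1.22 and 3.62. B2m shares no 31-base word with any other annotated gene. It lies inside Patl2 on the opposite strand, and Patl2 had 7, 5 and 10 counts.

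**Figure D1:**
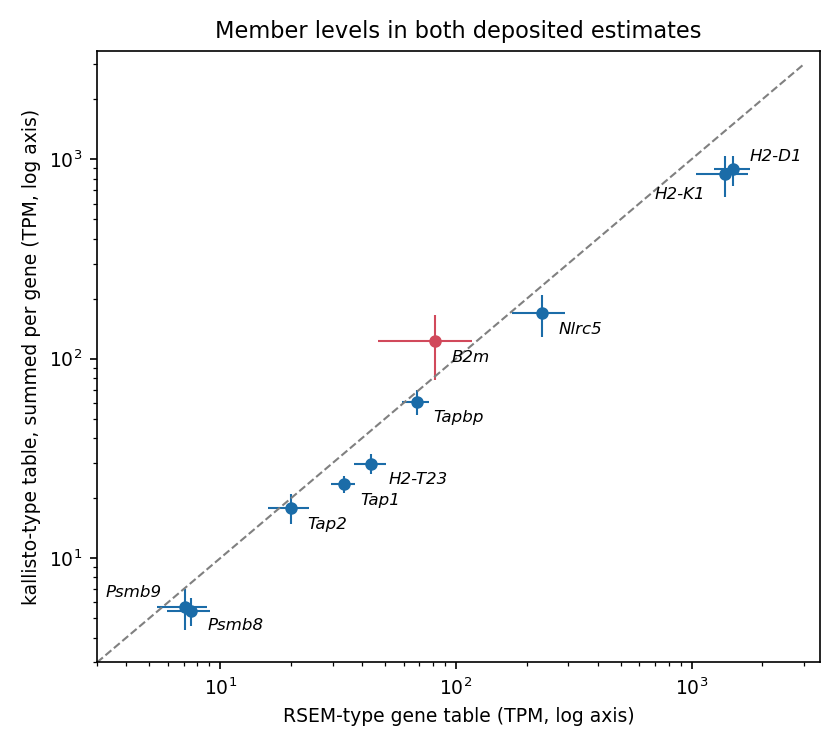
Mean level of each member in the RSEM-type gene table (x axis, TPM, log scale) against the kallisto-type table summed per gene (y axis, TPM, log scale). Bars are SD over 3 libraries and the dashed line marks equal values. B2m, in red, is the member whose mean lies above the line, at 81.7 and 122 TPM, while H2-K1 falls from 1387 to 843.

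Chromatin RNA of the nearby peptide transporter genes stood at unequal levels. Tap1 (ENSMUSG00000037321.17, chr17:34187553-34197225, plus strand) and Tap2 (ENSMUSG00000024339.12, chr17:34203527-34216321, plus strand) encode the subunits of the TAP heterodimer. Tap1 measured 30.7, 31.8 and 37.8 TPM, or 33.4 ± 3.85 (SD, n = 3). Tap2 measured 15.4, 21.6 and 22.7 TPM, or 19.9 ± 3.92 (SD, n = 3), and its range lay wholly below that of Tap1. The log2 ratio of Tap2 to Tap1 was -0.99, -0.56 and -0.74, a mean of -0.76 ± 0.22 (SD, n = 3), and -0.40 ± 0.26 in the kallisto-type table. Tapbp (ENSMUSG00000024308.15, chr17:33915899-33929292, plus strand) encodes tapasin, which bridges the heavy chain to TAP. It measured 73.1, 57.7 and 73.5 TPM, or 68.1 ± 9.03 (SD, n = 3), above both transporter genes in every library.

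Psmb8 and Psmb9 were the lowest members. They encode the immunoproteasome subunits that replace Psmb5 and Psmb6 of the constitutive proteasome. Psmb8 (ENSMUSG00000024338.15, chr17:34197721-34201454, plus strand) measured 8.40, 8.35 and 5.73 TPM, or 7.49 ± 1.53 (SD, n = 3), from 59, 80 and 57 counts. Psmb9 (ENSMUSG00000096727.3, chr17:34181987-34187764, minus strand) measured 7.68, 5.19 and 8.42 TPM, or 7.10 ± 1.69 (SD, n = 3), from 65, 79 and 137 counts. Their ranges overlapped, and which of them was higher changed with the library and with the deposited estimate. Both lay below the 16.4 TPM median of protein-coding genes at 1 TPM or more. Psmb9 was 17.4-fold below Psmb6, its constitutive counterpart, with log2 ratios of -4.14, -4.56 and -3.66 (mean -4.12 ± 0.45, SD, n = 3). Psmb8 was 3.86-fold above Psmb5 (mean log2 ratio 1.95 ± 0.81, SD, n = 3), but Psmb5 had only 3, 13 and 15 counts and the log2 ratio ranged from 1.13 to 2.76 by library. For the remaining pair, Psmb10 and Psmb7, the log2 ratio was 0.13 ± 0.52 (SD, n = 3) and its sign differed between libraries. In the kallisto-type table it was positive in all 3, at 0.31, 0.79 and 0.93 (mean 0.68 ± 0.33, SD, n = 3). The inducible and constitutive subunits thus showed no common order across the 3 pairs.

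Nlrc5 (ENSMUSG00000074151.13, chr8:94434356-94527272, plus strand), the class I transactivator, ranked behind only the classical heavy chains among the members. It measured 287, 170 and 240 TPM, or 232 ± 58.7 (SD, n = 3), from 4509, 5736 and 6654 counts, at the 98.0 percentile of protein-coding genes. The order of the libraries depended on the scale: in CPM, counts scaled to the library total with TMM factors and without length, Nlrc5 measured 303, 322 and 362. The effective length estimated for it was 2710, 3654 and 3177 nt in the 3 libraries, and the part of that estimate in the TPM differences was not tested. Ciita, the related transactivator of MHC class II genes, measured 6.67, 3.13 and 2.47 TPM. Nlrc5 exceeded Ciita in every library, by a mean log2 ratio of 5.93 ± 0.61 (SD, n = 3) or 61.1-fold, and by 38.2-fold in the kallisto-type table. The 5 genes whose pattern over the 3 libraries was nearest to that of Nlrc5, by Euclidean distance of centred log2(CPM + 1), were Samd4 (0.010), Dbf4 (0.010), Wdfy1 (0.015), Zdhhc13 (0.015) and Eef2kmt (0.015). With only 3 libraries, 426 of 6867 candidates lay within 0.1, so these 5 are not set apart.

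**Figure D2:**
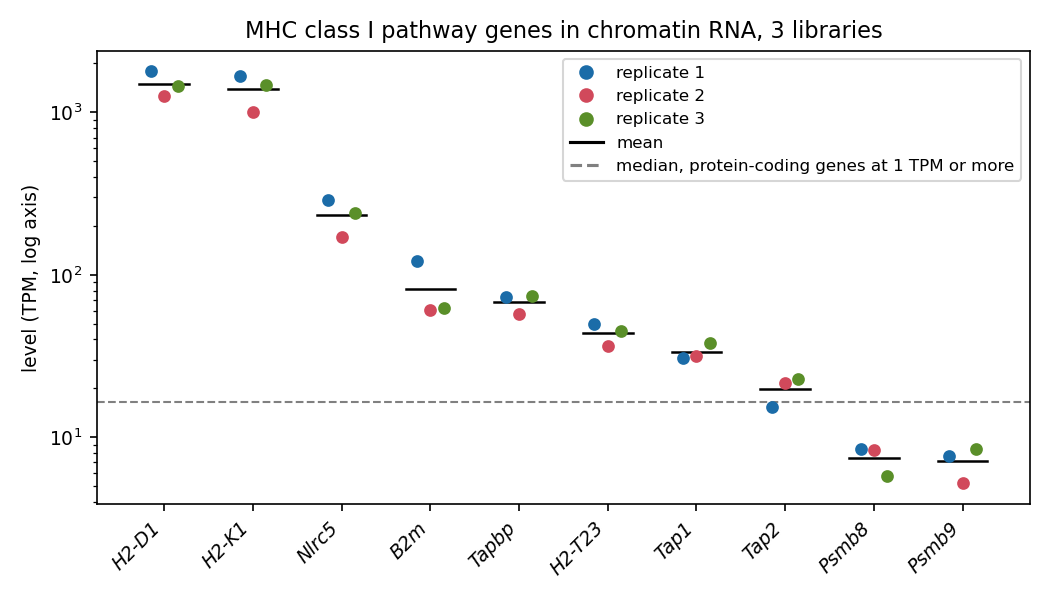
Level of each member (y axis, TPM, log scale) in replicates 1, 2 and 3 (coloured points), with the mean as a black bar and genes ordered by mean. H2-D1 and H2-K1 stand above 1000 TPM in every library, and Psmb8 and Psmb9 lie below the dashed line at 16.4 TPM, the median of protein-coding genes at 1 TPM or more.

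Ordered by mean, the members ran H2-D1, H2-K1, Nlrc5, B2m, Tapbp, H2-T23, Tap1, Tap2, Psmb8, Psmb9. Of the 9 neighbouring pairs, 4 had overlapping ranges: H2-D1 with H2-K1, B2m with Tapbp, H2-T23 with Tap1, and Psmb8 with Psmb9. The widest gap between neighbours was 5.97-fold, from H2-K1 down to Nlrc5. An exact permutation test of 3 values against 3 cannot go below p = 0.1, so the order is given by ranges only. In the kallisto-type table Nlrc5 and B2m overlapped instead of B2m and Tapbp, and Psmb9 stood above Psmb8.

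Transcript models differed sharply between members. Counts on transcripts annotated as retained introns made up 79.1% of the median member among 9 members with such a transcript, and 26.1% of the median gene among 5990 genes of at least 50 mean counts. Of the 9, 6 were above that median. The share depends on which retained-intron transcripts are annotated, from 1 for H2-D1 and Tap2 to 7 for H2-K1, and partly spliced RNA that fits no annotated transcript may be counted on one of them. B2m has a single annotated transcript, B2m-201, and so no share.

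The classical heavy chains, alike in total level, were split differently. For H2-K1 the retained-intron share was 83.5%, 76.1% and 77.8%, or 79.1% ± 3.92 (SD, n = 3), and for H2-D1 28.8%, 25.4% and 24.1%, or 26.1% ± 2.44 (SD, n = 3). The ranges did not overlap, and the kallisto-type table gave 74.0% and 25.6%. The transcript with most H2-K1 counts was H2-K1-209, a retained-intron model of 2 exons, with 3237, 3244 and 4127 counts. For H2-D1 it was the coding transcript H2-D1-202 of 8 exons, with 4560, 5190 and 6612 counts. Summed over protein-coding transcripts, H2-K1 had 976, 1514 and 2031 counts and H2-D1 had 5278, 5897 and 7298. H2-K1 and H2-D1 shared 22.8% and 26.9% of their 31-base words with other genes, including each other (11.1% and 13.8%), so reads between these paralogs and their transcripts were divided by the authors' estimation and the split is uncertain.

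Among the other members, Tap2 had the steadiest share, 89.5%, 89.6% and 88.7%, or 89.3% ± 0.532 (SD, n = 3), nearly all on Tap2-202. H2-T23 measured 85.4%, 74.8% and 79.7%, led by H2-T23-204 with 51.2% ± 4.80 of the gene's counts. H2-T23 shared 25.8% of its 31-base words with other genes, 12.4% with H2-T-ps, so its level and its split are uncertain too. Psmb8 measured 95.1%, 75.8% and 100%, and Psmb9 73.9%, 82.5% and 82.7%, both from under 140 counts a library. Tap1 measured 65.0%, 59.3% and 40.7%, with replicate 3 apart where its coding transcript Tap1-206 had 503 counts beside 178 and 251. Nlrc5 and Tapbp were at the other end. Nlrc5 measured 10.3%, 4.77% and 5.09%, and Nlrc5-207, a coding transcript of 53 exons, held 80.9% ± 2.08 (SD, n = 3) of its counts. Tapbp measured 5.12%, 7.70% and 5.14%, and Tapbp-206, also coding, held 72.5% ± 4.41 (SD, n = 3). Both low shares moved with the measure: Nlrc5 averaged 6.70% here, 3.11% with kallisto-type counts and 18.5% as a share of TPM, and Tapbp averaged 5.99% here and 22.6% as a share of TPM. On each of these measures both stayed below the median of all genes, which was 29.9% with kallisto-type counts and 42.6% as a share of TPM.

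**Figure D3:**
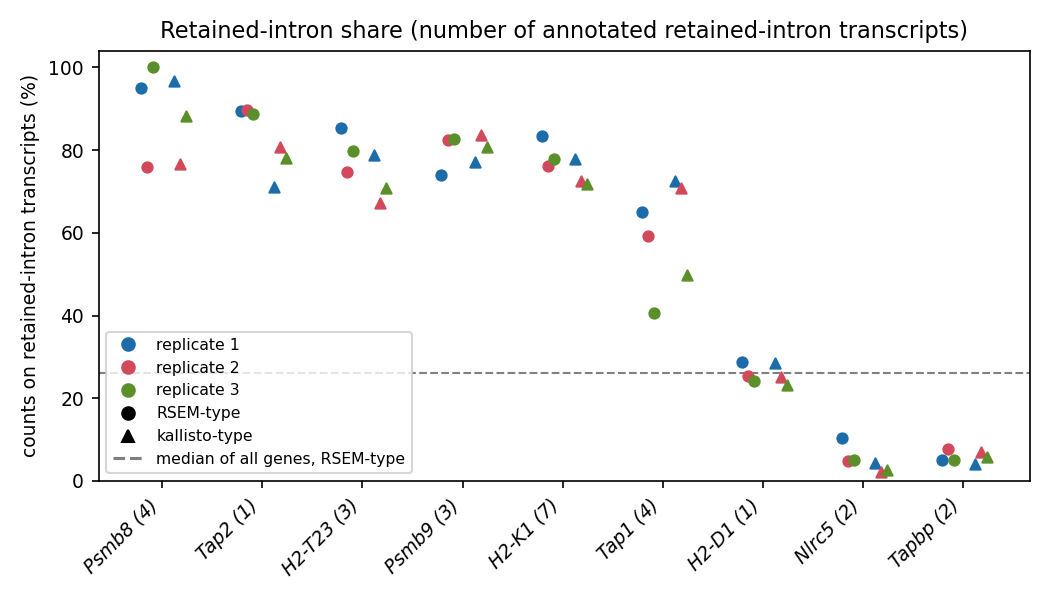
Percent of each member's transcript counts on retained-intron transcripts (y axis) in replicates 1, 2 and 3 (colours), from the RSEM-type table (circles) and the kallisto-type table (triangles). The number in brackets is how many retained-intron transcripts are annotated, and the dashed line is the median of all genes, 26.1%. H2-K1 lies near 79.1% and H2-D1 near 26.1%.

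Overlap with neighbours touched several members. No source used here gives the strand setting of the counting, so counts of genes on opposite strands may be mixed. Tapbp shared 22.1% of its 31-base words with the antisense gene Gm19412, which had 10, 9 and 5 counts beside 708, 821 and 1010 for Tapbp. Tap2 shared 11.3% with Gm15821, which had 10, 24 and 20 counts, and Psmb8 shared 13.0% with Gm20496, which had 1, 0 and 0. Tap1 and Psmb9 overlap by 212 bases on opposite strands and shared 3.26% of the words of Tap1 and 4.79% of those of Psmb9. Tapbp also overlaps the protein-coding gene Zbtb22 on the same strand over 3422 bases of their gene spans. Zbtb22 had 154, 247 and 213 counts and shared 2.40% of the words of Tapbp. The antisense neighbours of Tapbp, Tap2 and Psmb8 held few counts next to the members, while Zbtb22 held more.

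None of the 10 members was called as changing with RNA amount, the 1 recorded difference between libraries. In the fit over 15077 genes with edgeR's quasi-likelihood test, which has 1 residual degree of freedom, 0 of 10 members passed an adjusted p under 0.05 and 2 of 10 passed an unadjusted p under 0.05. Of all genes tested 4.38% were called, 2.98% as higher with more RNA and 1.41% as lower, and 21.5% had an unadjusted p under 0.05. DESeq2 called 0 members, gave 1 (Tap2) an unadjusted p under 0.05, gave Psmb8 no adjusted p, and called 3.84% of the genes to which it gave one. Amount and replicate cannot be told apart, and reads on the ribosomal DNA locus moved with the libraries too, at 8.59%, 27.2% and 23.2% of counts. Their part in the members' values was not tested, though leaving out the genes of that locus left 0 members called.

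The members' median change was 0.00 log2 units per doubling of RNA, against -0.01 over all genes tested. B2m and Tap2 lay furthest from 0 and in opposite directions. B2m measured 31.1, 19.2 and 18.4 CPM and changed by 0.35 per doubling (SE 0.15, edgeR adjusted p = 0.191). Tap2 measured 14.6, 26.6 and 25.3 and changed by -0.43 (SE 0.16, edgeR adjusted p = 0.138). In both genes replicate 1 stood apart and replicates 2 and 3 were close. H2-K1 changed by 0.15 (SE 0.14) and H2-D1 by 0.08 (SE 0.13), with CPM of 544, 441 and 597 and of 499, 445 and 522. The other 6 members ranged from -0.17 for Tap1 to 0.02 for Tapbp. These small changes rested on single libraries: all members but Tap2 took opposite signs without replicate 1 and without replicate 2. In that order the values were 0.43 and -0.13 for H2-K1, 0.23 and -0.07 for H2-D1, and -0.07 and 0.76 for B2m. They were 0.15 and -0.48 for Tap1, -0.54 and 0.36 for Psmb8, and 0.74 and -0.77 for Psmb9, and for Tap2 -0.08 and -0.79. A p that misses the threshold does not show that a member did not change. The SD of log2 CPM over the 3 libraries had a median of 0.22 in the members and 0.24 in all genes tested.

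Some close relatives of the classical heavy chains were called. Of 17 other class I heavy chain genes and pseudogenes, 10 reached 1 TPM and 7 had 0 counts in all libraries of the RSEM-type table. In the kallisto-type table, 11 reached 1 TPM and 2 had 0 counts, and H2-Q10 stood at 32.8 TPM beside 5.10 in the RSEM-type table. Of the 10 tested, 3 rose with RNA amount and 0 fell. They are H2-Q6, H2-Q7 and H2-Q10 of the Qa region. H2-Q7 measured 66.7, 21.6 and 35.8 CPM and rose by 0.81 per doubling (SE 0.14, edgeR adjusted p = 0.00271). H2-Q6 measured 16.9, 5.90 and 11.3 CPM and rose by 0.75 (SE 0.18, edgeR adjusted p = 0.0258). H2-Q10 measured 14.2, 4.89 and 8.04 CPM and rose by 0.77 (SE 0.19, edgeR adjusted p = 0.0245), but was not called by DESeq2 (adjusted p = 0.0631). In all 3 genes replicate 1 was highest and replicate 2 lowest. H2-Q7, H2-Q6 and H2-Q10 share 39.2%, 51.8% and 30.3% of their 31-base words with other genes, including each other. H2-Q7 shares 22.4% with H2-Q10, H2-Q10 shares 21.9% with H2-Q7, and H2-Q6 shares 18.4% with H2-Q7. The 3 calls may therefore not be separate. With kallisto-type counts none of the 3 was called (edgeR adjusted p = 0.130, 0.0555 and 0.686 for H2-Q7, H2-Q6 and H2-Q10). The highest relatives were H2-K2, annotated as a pseudogene, at 142 ± 36.5 TPM (SD, n = 3) and H2-Q4 at 95.0 ± 25.8 TPM (SD, n = 3), and neither was called. The difference between members and relatives was not tested.

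**Figure D4:**
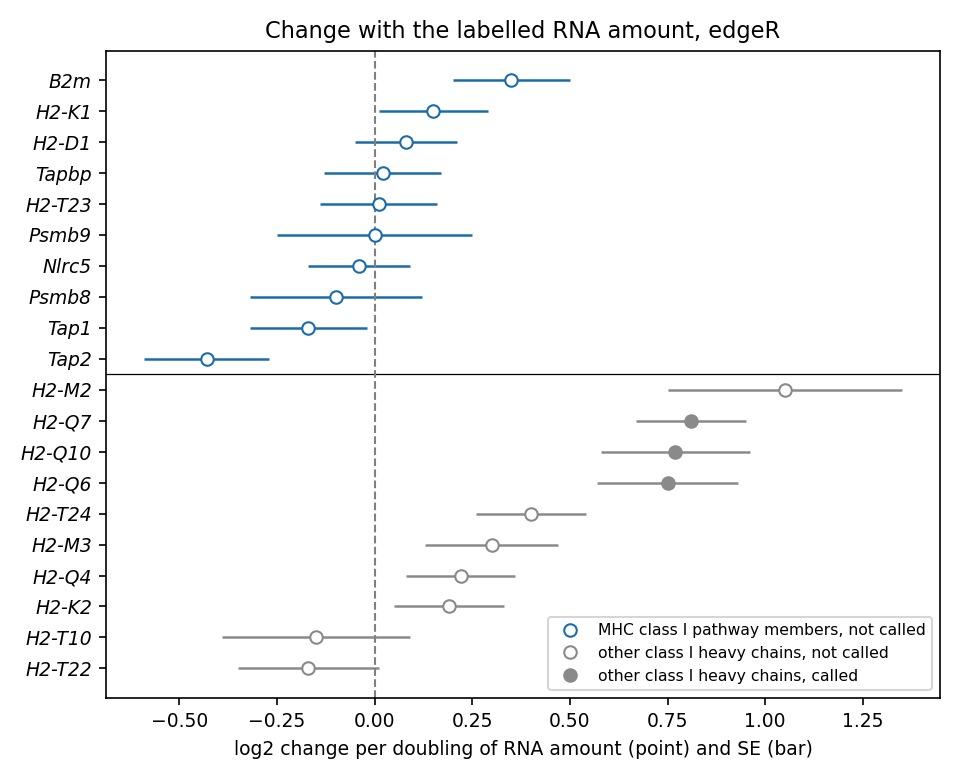
Log2 change per doubling of RNA amount (x axis, point) with its SE (bar) from edgeR for the 10 members (blue, above the line) and the 10 other class I heavy chain genes tested (grey). Filled points passed an adjusted p under 0.05: H2-Q6, H2-Q7 and H2-Q10, and no member.

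The rest of the pathway was present throughout. All 11 partners in folding and loading reached 1 TPM, with a median of 71.5, and 0 were called by edgeR or by DESeq2, with 2 at an unadjusted edgeR p under 0.05 (Ganab and Prkcsh, glucosidase II subunits). The chaperones Hspa5 (BiP) and Calr (calreticulin) led at 235 ± 82.8 and 132 ± 1.38 TPM (SD, n = 3), and Tapbpl (TAPBPR, a peptide editor related to tapasin) was lowest at 3.16 ± 0.376. Of 5 partners of the immunoproteasome all reached 1 TPM, led by the activator subunits Psme2 (137 ± 35.5) and Psme1 (53.0 ± 6.68), with Psme3 lowest (19.9, 22.4 and 23.8 TPM by replicate), and 0 were called by edgeR or DESeq2, with 0 at an unadjusted edgeR p under 0.05. The 14 constitutive core subunits had a median of 19.0 TPM, led by Psmb6 (122 ± 14.3) and Psma3 (77.7 ± 14.7), and 0 were called by edgeR or DESeq2, with 1 (Psma1) at an unadjusted edgeR p under 0.05. Psmb8 and Psmb9 stood below that median. DESeq2 gave no adjusted p to the core subunits Psmb2, Psmb5, Psma5 and Psma6 or to the loading partner Tapbpl. Of 9 class I-like molecules 6 reached 1 TPM, led by Mill2 (14.1 ± 0.708, SD, n = 3) and Fcgrt, the neonatal Fc receptor heavy chain (13.0 ± 1.33).

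All 14 regulators that act at class I promoters reached 1 TPM, with a median of 75.2. Irf1, an interferon-responsive activator that binds the response element, led at 2827, 1060 and 1583 TPM, and Irf2, its competitor at the same element, measured 254 ± 51.6 (SD, n = 3). Rfxap, a subunit of the RFX complex through which NLRC5 acts, was lowest at 2.09, 2.97 and 7.91 TPM from 4, 19 and 24 counts. Of the 14, 2 rose with RNA amount, Irf1 by 0.63 per doubling (SE 0.13, edgeR adjusted p = 0.00776) and Creb1, the CRE-binding factor, by 0.60 (SE 0.14, edgeR adjusted p = 0.0175). For Creb1 replicate 1 stood apart at 150 TPM beside 40.2 and 48.2, and its change was 0.27 without that library and 0.93 without replicate 2. With kallisto-type counts Irf1 stayed called (edgeR adjusted p = 0.0390) and Creb1 did not (0.0526).

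MHC class II genes were measured beside them. Of 10 listed, 8 reached 1 TPM and the median was 7.10 TPM, led by the invariant chain Cd74 (58.6 ± 13.3, SD, n = 3) and the peptide exchange subunit H2-DMa (24.8 ± 14.3). In the kallisto-type table, 9 reached 1 TPM and the median was 13.1. There H2-Ob, a class II-like chain that restrains peptide exchange, ranked behind Cd74 (110 TPM) at 93.0 TPM, from 2096, 681 and 730 counts beside 0, 1 and 2 in the RSEM-type table. H2-Aa, a class II alpha chain, rose with RNA amount by 0.74 (SE 0.19, edgeR adjusted p = 0.0310), but not by DESeq2 (adjusted p = 0.0850), and its change was 0.03 without replicate 1 and 1.42 without replicate 2. The labelled cell type showed in its markers: all 10 macrophage genes reached 1 TPM, with a median of 154. Of other cell types in the RSEM-type table, 1 of 6 dendritic cell markers (Zbtb46, 1.95 TPM), 1 of 6 neutrophil markers (Ngp, 1.87 TPM), 0 of 9 lymphocyte markers and 0 of 6 stromal markers reached 1 TPM. The 9 lymphocyte markers summed to 0.557, 0.373 and 0.439 TPM and 5 of them had 0 counts in all libraries of that table. The kallisto-type table differed: 5 of 6 dendritic cell, 2 of 6 neutrophil, 4 of 9 lymphocyte and 4 of 6 stromal markers reached 1 TPM there, and the lymphocyte markers summed to 45.3, 47.2 and 54.8 TPM. Most of that sum lay on Cd3d (373, 677 and 739 counts) and Thy1 (147, 275 and 315 counts), both at 0 in the RSEM-type table. Cd3e, a chain of the same T cell receptor complex as Cd3d, had 2, 3 and 1 kallisto-type counts. The part of other cell types in the members' levels was not tested. The total was 13318787, 19162053 and 19147923 expected counts over genes in replicates 1, 2 and 3.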

How the data were processed

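Total RNA of the chromatin fraction was measured in 3 libraries of 1 group. For each library the authors deposited gene and transcript tables of expected counts and TPM with the column names of RSEM, and a transcript table of estimated counts and TPM with those of kallisto, per the file headers. The deposited RSEM-type tables also hold bounds of a credibility interval, treated as scores and not used. Assembly mm10 and annotation M21 are given by the deposited readme files. The sources used here do not name the aligner, tool versions, strandedness or read filters.

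To obtain levels, each expected count was divided by the effective length, and TPM was formed over genes of at least 300 nt, without 26345 tRNA and spike-in entries. Errors are SD over 3 libraries. Percentiles are among protein-coding genes. Expected counts, rounded, were fitted on log2 RNA amount with edgeR 4.0.16 (TMM, filterByExpr, quasi-likelihood F test, Benjamini-Hochberg adjustment over 15077 genes) in R 4.3.3, with the SE derived from F. DESeq2 1.42.0 was an alternative. The fit was tested on simulated data. Retained-intron shares used genes with at least 50 mean counts. Words of 31 bases were compared over all annotated transcripts on either strand. Python 3.11.15, numpy 2.4.6 and pandas 2.3.3 were used.

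The members and lists were chosen with earlier results of these data known. Named were the members, the 2 highest and the lowest gene of each list, each called gene (over 6, the 3 largest in each direction), the 5 genes most like Nlrc5 (protein-coding, at least 10 TPM) and each member's most abundant transcript. In lists described only as a whole, not all such genes are named. H2-Q4 and H2-K2 share words with other heavy chains and their levels are uncertain. Irf1, Creb1, H2-Aa and the H2-Q genes were followed under the alternatives only after their calls were seen. List counts in the kallisto-type table were added after seeing the data.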

Additional observations from a re-analysis of the deposited data

How the results depend on the processing

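Under RLE size factors, DESeq2, no count filter, kallisto-type counts, removal of the ribosomal DNA locus genes and genes of at least 300 nt (added after seeing the data), 0 members were called in either direction. The members' median change per doubling lay between -0.22 and 0.20 when each replicate was left out: -0.22 without replicate 2 and 0.20 without replicate 1, fits of 2 libraries with no test. The median level of 55.9 TPM was 20.3 in TPM as deposited and 20.3 with no minimum length, because small RNAs then take most of the total, and 45.3 in the kallisto-type table (the cause was not tested). It ran from 51.1 to 60.4 when replicates were left out. The number of neighbouring pairs with overlapping ranges ran from 2 (without replicate 3) to 4 (without replicate 1), since fewer libraries narrow the ranges. The median retained-intron share of 79.1% was 72.2% with kallisto-type counts and 70.1% as a share of TPM, where the median of all genes was 29.9% and 42.6% (the cause was not tested). It was 55.0% with at least 200 counts, where Psmb8 and Psmb9 drop out, and ran from 76.9% to 78.3% when replicates were left out. No value changed sign among those called. No paired analysis was possible because there is only 1 group. Low counts limit the values of Psmb8, Psmb9, Psmb5 and Rfxap, among others, and 1 residual degree of freedom limits every call.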
